A study of Homo sapiens with 11 samples.

Results

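The genes described here were 10 histone deacetylases, HDAC1 to HDAC9 and HDAC11, found by their Ensembl IDs among the 57736 IDs of the count table. All 10 were among the 13980 genes with enough counts to be tested. Gene expression had been measured by RNA-seq in 11 libraries of HEC50B, an endometrial cancer cell line. One line was the parental one, with the R183W substitution in PPP2R1A, which encodes the scaffold subunit of protein phosphatase 2A, and in the other this gene had been made wild type (WT) by CRISPR. Cells were given vehicle or 50 µM of WM1119, a compound that inhibits KAT6A, a lysine acetyltransferase, for 4 days. There were 2 libraries of R183W cells with WM1119, 3 of R183W cells with vehicle, 3 of WT cells with WM1119 and 3 of WT cells with vehicle. The labels name a single CRISPR line and do not say how many clones it stands for, so the R183W substitution and any other difference between the lines cannot be told apart. The labels number the libraries but do not call them separate cultures, so p-values reflect the spread between these libraries alone, and that spread may be technical.

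Histone deacetylases remove acetyl groups from lysines of histones and other proteins, the reverse of what acetyltransferases such as KAT6A do. Class I enzymes sit in the nucleus, HDAC1 and HDAC2 as exchangeable subunits of the NuRD, SIN3 and CoREST complexes and HDAC3 in a corepressor complex of its own. Class IIa enzymes have little deacetylase activity of their own, bind MEF2 transcription factors, and leave the nucleus when kinases phosphorylate them and 14-3-3 proteins bind. Class IIb HDAC6 acts mainly on cytoplasmic proteins such as tubulin, and HDAC11 is the class IV enzyme.

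The authors deposited expected counts per gene, given below as CPM, the count scaled to a common library size with TMM factors. Library totals ran from 2609922 to 6065149 counts. WT WM1119 library 3 had the lowest total and stood apart. Across genes, which are not independent of each other, its log CPM correlated at 0.917 and 0.937 with the others of its group, and all other pairs within a group reached 0.957 to 0.975. Results that turn on it are given with and without it. Gene counts do not show an edited codon or the activity of an enzyme, so neither the R183W substitution nor the inhibition of KAT6A could be checked here. KAT6A itself averaged 179 ± 7 CPM (SD, n = 2) in R183W cells with WM1119 and 170 ± 26.3 (n = 3) with vehicle, and 223 ± 53.9 and 149 ± 28.8 CPM in WT cells with WM1119 and with vehicle (n = 3 each). Of the epithelial markers, KRT8, KRT18 and EPCAM were expressed in every library, with KRT18 at 743 to 1570 CPM, whereas CDH1 and KRT19 stayed below 1 CPM. The endometrial lineage markers PAX8, HOXA10 and FOXA2 were expressed, while SOX17 and PGR had 0 counts throughout and ESR1 reached 1.24 CPM at most. CD3E, CDH5 and DCN, which mark T cells, endothelium and fibroblasts, had 0 counts in all 11 libraries, although COL1A1, another fibroblast marker, stood at 565 to 927 CPM and LUM, a further one, at 4.14 CPM at most. PDGFRB, also of the fibroblast list, averaged 0.271 CPM in R183W cells with WM1119, 5.82 CPM in R183W cells with vehicle, 22.5 CPM in WT cells with WM1119 and 38.5 CPM in WT cells with vehicle. CD68, a macrophage marker, ran from 2.57 to 10.9 CPM. The 6 epithelial markers summed to 1630 CPM in both R183W libraries with WM1119, 1650 to 1850 CPM in R183W cells with vehicle, 1170 to 1530 CPM in WT cells with WM1119 and 950 to 1210 CPM in WT cells with vehicle. KRT18 makes up most of that sum, and EPCAM averaged 38.4 CPM in R183W cells and 59.7 CPM in WT cells under vehicle. The mesenchymal genes VIM, CDH2 and FN1 summed to 834 to 862 CPM in R183W cells with WM1119, 865 to 904 CPM in R183W cells with vehicle, 767 to 942 CPM in WT cells with WM1119 and 1230 to 1300 CPM in WT cells with vehicle. The part of these markers in the differences below was not tested.

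HDAC1 had the highest level of the family per kilobase of transcript in each of the 4 groups. With union exon lengths of GENCODE release 29 it averaged 86.3 ± 9.18 CPM per kb in R183W cells with WM1119 (SD, n = 2) and 91.0 ± 5.90 with vehicle, and 102 ± 0.84 and 92.6 ± 5.68 in WT cells with WM1119 and with vehicle. HDAC3, whose length was the same by either definition, ranged from 28.9 to 41.7 CPM per kb over the 4 group means, and HDAC7 from 21.7 to 27.7 CPM per kb. Among class IIa enzymes the order was HDAC7, then HDAC5 at 5.95 to 10.2 CPM per kb, then HDAC4 at 1.62 to 2.41 CPM per kb. That order of the 3 was the same in every group with median coding transcript lengths. HDAC9 was the lowest of the 10 in both lines with WM1119 by either length, at 0.447 ± 0.0435 CPM per kb in R183W cells and 0.448 ± 0.137 in WT cells. By transcript lengths HDAC9 and HDAC4 in WT cells with WM1119, at 1.82 and 2.11 CPM per kb, did not differ beyond the spread of HDAC4. Other places in the order depended on which length was used and are not given here. Counts behind single values ran from 10 for HDAC9 in WT WM1119 library 3 to 1206 for HDAC1.

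**Figure D1:**
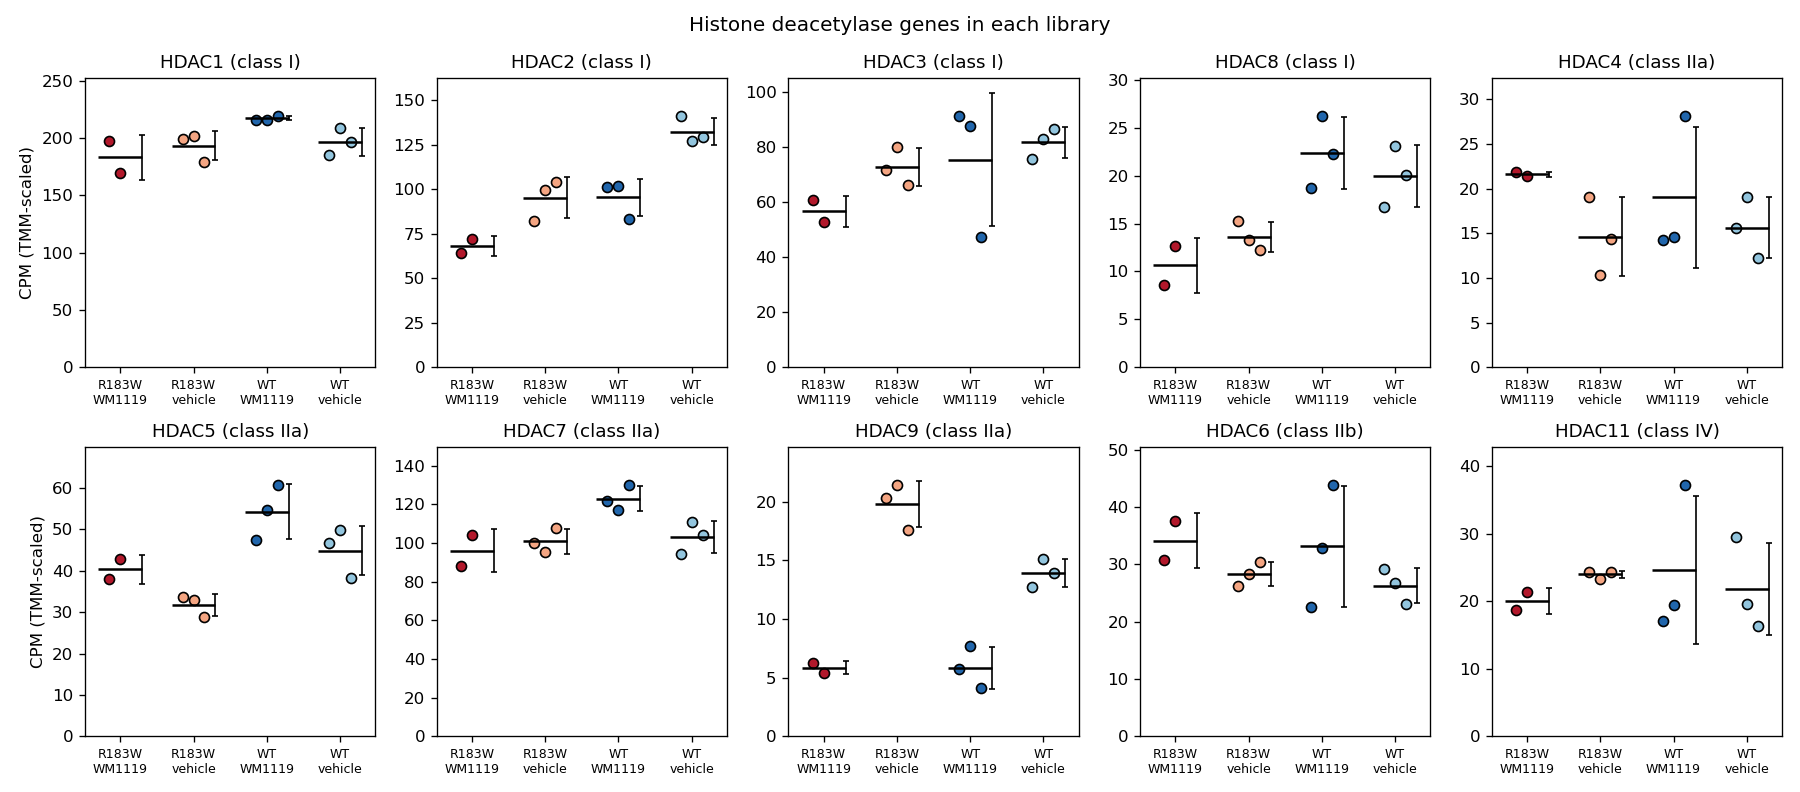
Level of each histone deacetylase gene in each of the 11 libraries, in CPM on a linear axis from 0. Points are libraries, horizontal lines are group means and the bars beside them are SD. HDAC9 is at 4.13 to 7.71 CPM in all 5 libraries with WM1119 and at 12.7 to 21.4 CPM in all 6 with vehicle.

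The first question was what WM1119 did to these genes in each line. HDAC9, a class IIa enzyme, fell in both lines, to 29.7% of its vehicle level in R183W cells and to 43% in WT cells. It was the 1 of 10 members that passed the test in R183W cells, where 4.64% of all genes tested passed, 1.99% higher and 2.65% lower. It was also the 1 of 10 in WT cells, where 4.86% of all genes passed, 2.33% higher and 2.53% lower. A single call among 10 genes does not set the family apart from either background. The median log2 change of the 10 members was -0.17 in R183W cells and 0.15 in WT cells, against -0.0011 and -0.0031 for all genes tested. Below, whether the libraries of 2 groups overlap is given as a description only. With 2 or 3 libraries in a group, separation can arise from their ordering alone, and its share over all genes was not counted.

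HDAC9 (ENSG00000048052) had 6.24 and 5.44 CPM in the R183W libraries with WM1119, against 20.3, 21.4 and 17.6 CPM with vehicle. In WT cells it had 5.71, 7.71 and 4.13 CPM with WM1119, against 12.7, 15.1 and 13.9 CPM with vehicle. Every WM1119 library was below every vehicle library, within each line and across the lines. The counts behind these values were 10 to 30 with WM1119 and 57 to 123 with vehicle. The lowest, 10 counts, has an exact Poisson 95% interval of 1.98 to 7.59 CPM, which covers counting error only and lies below the intervals of all 6 vehicle libraries. The log2 change was -1.75 (SE 0.287, edgeR adjusted p = 0.00378) in R183W cells and -1.22 (SE 0.252, edgeR adjusted p = 0.0149) in WT cells. In bulk RNA, fewer cells with the transcript and less of it per cell cannot be told apart, and gene counts do not separate the start sites of HDAC9. The call in R183W cells was lost when R183W WM1119 library 1 (edgeR adjusted p = 0.0525) or 2 (0.0725) was left out. The call in WT cells was lost without WT vehicle library 2 (edgeR adjusted p = 0.0651) or 3 (0.0518), and when only the WT libraries entered the fit (0.102).

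Averaged over both lines in the same fit, a contrast added after the data had been seen, HDAC9 changed by -1.48 on the log2 scale (SE 0.191, 95% interval -1.89 to -1.07, edgeR adjusted p = 0.000265). It ranked 109 of the 13980 genes by p. This call held under all 18 alternative settings, leaving out each of the 11 libraries included, with adjusted p from 2.03e-08 to 0.00396. Relative to HDAC7, the most abundant class IIa member, HDAC9 had 7.08 and 5.22 counts per 100 HDAC7 counts in R183W libraries with WM1119, against 20.3, 22.5 and 16.4 with vehicle. In WT libraries it had 4.68, 6.61 and 3.16 with WM1119, against 13.4, 13.6 and 13.4 with vehicle. The ratio within a library thus separated the treatments in both lines without any scaling between libraries. TWIST1, the gene next to HDAC9 and a transcription factor of mesenchymal cells, had a log2 change of 0.00 (edgeR adjusted p = 0.994) in R183W cells and 0.24 (edgeR adjusted p = 0.550) in WT cells. Of the tested neighbours of HDAC2 and HDAC8, HS3ST5, next to HDAC2, had an averaged log2 change of -0.97 (edgeR adjusted p = 0.0998). Its level was low, at 0.413 to 9.97 CPM. CITED1 and PHKA1, next to HDAC8, had averaged changes of 0.07 (edgeR adjusted p = 0.95) and -0.41 (edgeR adjusted p = 0.45).

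RefSeq's promoter table (GRCh38.p14) held windows for 9 of the 10 members, all but HDAC5. The first 250 bases of each window, those before the annotated start, were searched on both strands for TEAD (GGAATG), AP-1 (TGANTCA), MEF2 (CTA, any 4 bases, TAG), GC box (GGGCGG), NF-Y (CCAAT) and CRE (TGACGTCA) letters. Among all 35116 windows, 11.9% held the TEAD letters, 6.57% AP-1, 2.36% MEF2, 42.6% a GC box, 32% NF-Y and 1.65% CRE. HDAC9 had 5 windows, and 2 that lie far apart are shown because it was the member that changed most with the inhibitor, with matches in capitals. The first, at chr7:18495499-18495748 on the plus strand, held 1 AP-1 and 2 NF-Y matches and was 45.2% G and C. The second, upstream at chr7:18086575-18086824 on the plus strand, held 2 GC boxes, both as their reverse complement, and was 75.2% G and C.
HDAC9 window 1: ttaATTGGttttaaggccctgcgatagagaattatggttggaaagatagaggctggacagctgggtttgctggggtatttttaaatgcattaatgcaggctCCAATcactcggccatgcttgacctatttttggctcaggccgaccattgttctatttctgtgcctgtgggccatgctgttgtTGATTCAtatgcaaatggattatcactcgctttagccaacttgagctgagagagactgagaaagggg
HDAC9 window 2: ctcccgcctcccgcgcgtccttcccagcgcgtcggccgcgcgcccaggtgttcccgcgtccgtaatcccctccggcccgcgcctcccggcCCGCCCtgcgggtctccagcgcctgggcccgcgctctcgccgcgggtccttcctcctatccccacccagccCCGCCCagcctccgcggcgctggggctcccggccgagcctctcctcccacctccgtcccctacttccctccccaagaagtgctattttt
No MEF2 or CRE letters were found in any of the 5 HDAC9 windows, and TEAD letters were found in 1 of them. These matches describe the letters and say nothing of which factor binds.

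HDAC2, which shares its complexes with HDAC1, had lower values with WM1119 in both lines and fell when the lines were averaged. It had 64.1 and 71.9 CPM in R183W libraries with WM1119, against 82.0, 99.7 and 104 CPM with vehicle. In WT libraries it had 101, 102 and 83.4 CPM with WM1119, against 141, 127 and 129 CPM with vehicle. The treatments did not overlap in either line, but WT cells with WM1119 and R183W cells with vehicle lay at the same level. The log2 change was -0.48 (SE 0.157, edgeR adjusted p = 0.101) in R183W cells and -0.46 (SE 0.137, edgeR adjusted p = 0.0703) in WT cells, so neither passed. In R183W cells it passed without WT WM1119 library 3 (edgeR adjusted p = 0.024) and when only the R183W libraries entered the fit (0.0217), and in WT cells with DESeq2 (adjusted p = 0.0279). Averaged over both lines HDAC2 fell by 0.47 on the log2 scale (SE 0.104, 95% interval -0.70 to -0.25, edgeR adjusted p = 0.0101). That call was lost without R183W WM1119 library 1 (edgeR adjusted p = 0.0663).

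HDAC1 did not show this pattern. It had 197 and 169 CPM in R183W libraries with WM1119, against 199, 202 and 179 CPM with vehicle. WT libraries had 216, 216 and 219 CPM with WM1119, against 185, 209 and 196 CPM with vehicle. The R183W groups overlapped and the WT libraries with WM1119 were just above those with vehicle. The averaged log2 change was 0.03, with a 95% interval from -0.15 to 0.22 (edgeR adjusted p = 0.843). Per 100 counts of HDAC1, HDAC2 had 32.5 and 42.4 counts in R183W libraries with WM1119, against 41.2, 49.4 and 57.9 with vehicle. In WT libraries it had 46.7, 47.4 and 38.1 with WM1119, against 75.9, 60.6 and 65.6 with vehicle. The ratio of the 2 enzymes separated the treatments without overlap in WT cells and overlapped in R183W cells.

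Of the other class I enzymes, HDAC3 had 60.7 and 52.6 CPM in R183W libraries with WM1119, against 71.8, 80.0 and 66.3 CPM with vehicle. WT libraries had 91.2, 87.6 and 47.5 CPM with WM1119, against 75.6, 82.9 and 86.6 CPM with vehicle. The 2 R183W groups did not overlap, whereas the low value in WT cells with WM1119 was library 3. The averaged log2 change of HDAC3 was -0.23 (95% interval -0.55 to 0.09, edgeR adjusted p = 0.341). HDAC8, a class I enzyme that also deacetylates the cohesin subunit SMC3, had an averaged log2 change of -0.10 (95% interval -0.47 to 0.27, edgeR adjusted p = 0.739).

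The other class IIa enzymes did not follow HDAC9. HDAC7 had 88.1 and 104 CPM in R183W libraries with WM1119, against 100, 95.2 and 108 CPM with vehicle. WT libraries had 122, 117 and 130 CPM with WM1119, against 94.6, 111 and 104 CPM with vehicle, a log2 change of 0.25 (edgeR adjusted p = 0.278). These WT groups did not overlap and the R183W ones did, and the averaged log2 change was 0.09 (95% interval -0.12 to 0.29, edgeR adjusted p = 0.587). HDAC5 had 37.9 and 42.9 CPM in R183W libraries with WM1119, against 33.7, 33.0 and 28.8 CPM with vehicle. WT libraries had 47.4, 54.7 and 60.7 CPM with WM1119, against 46.6, 49.9 and 38.2 CPM with vehicle. The R183W groups did not overlap and the WT groups did. The averaged log2 change of HDAC5, 0.31 (95% interval 0.04 to 0.57), had an edgeR adjusted p of 0.117 and did not pass. HDAC4 had 21.8 and 21.4 CPM in R183W libraries with WM1119, against 19.1, 10.3 and 14.4 CPM with vehicle, and its averaged log2 change was 0.40 (95% interval -0.07 to 0.88, edgeR adjusted p = 0.254). In WT libraries HDAC4 had 14.3, 14.6 and 28.1 CPM with WM1119, against 15.6, 19.1 and 12.2 CPM with vehicle, the highest being library 3. Estimates for these 3 class IIa genes were above 0 on average, while that for HDAC9 was below it.

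Neither HDAC6 nor HDAC11 passed in any comparison. HDAC6, the tubulin deacetylase, had 30.7 and 37.5 CPM in R183W libraries with WM1119, against 26.2, 28.3 and 30.4 CPM with vehicle. WT libraries had 22.6, 32.9 and 43.8 CPM with WM1119, against 29.2, 26.7 and 23.0 CPM with vehicle, and the averaged log2 change was 0.29 (95% interval -0.06 to 0.64, edgeR adjusted p = 0.265). In R183W cells the libraries with WM1119 were just above those with vehicle, and the WT groups overlapped. HDAC11, the class IV enzyme, had 18.7 and 21.4 CPM in R183W libraries with WM1119, against 24.3, 23.3 and 24.3 CPM with vehicle. WT libraries had 17.1, 19.5 and 37.2 CPM with WM1119, against 29.5, 19.6 and 16.4 CPM with vehicle, and the averaged log2 change was -0.06 (95% interval -0.51 to 0.40, edgeR adjusted p = 0.887). The R183W libraries with WM1119 lay below those with vehicle for HDAC11, and the WT groups overlapped. WT WM1119 library 3 was the highest of its group for HDAC1, HDAC4, HDAC5, HDAC6, HDAC7 and HDAC11 and the lowest for HDAC2, HDAC3 and HDAC9. In the averaged contrast 2 of the 10 members passed, HDAC9 and HDAC2, both lower, with that library and without it. Of all genes tested 12.8% passed the averaged contrast and 6.52% were lower, and without that library 15.8% passed.

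**Figure D2:**
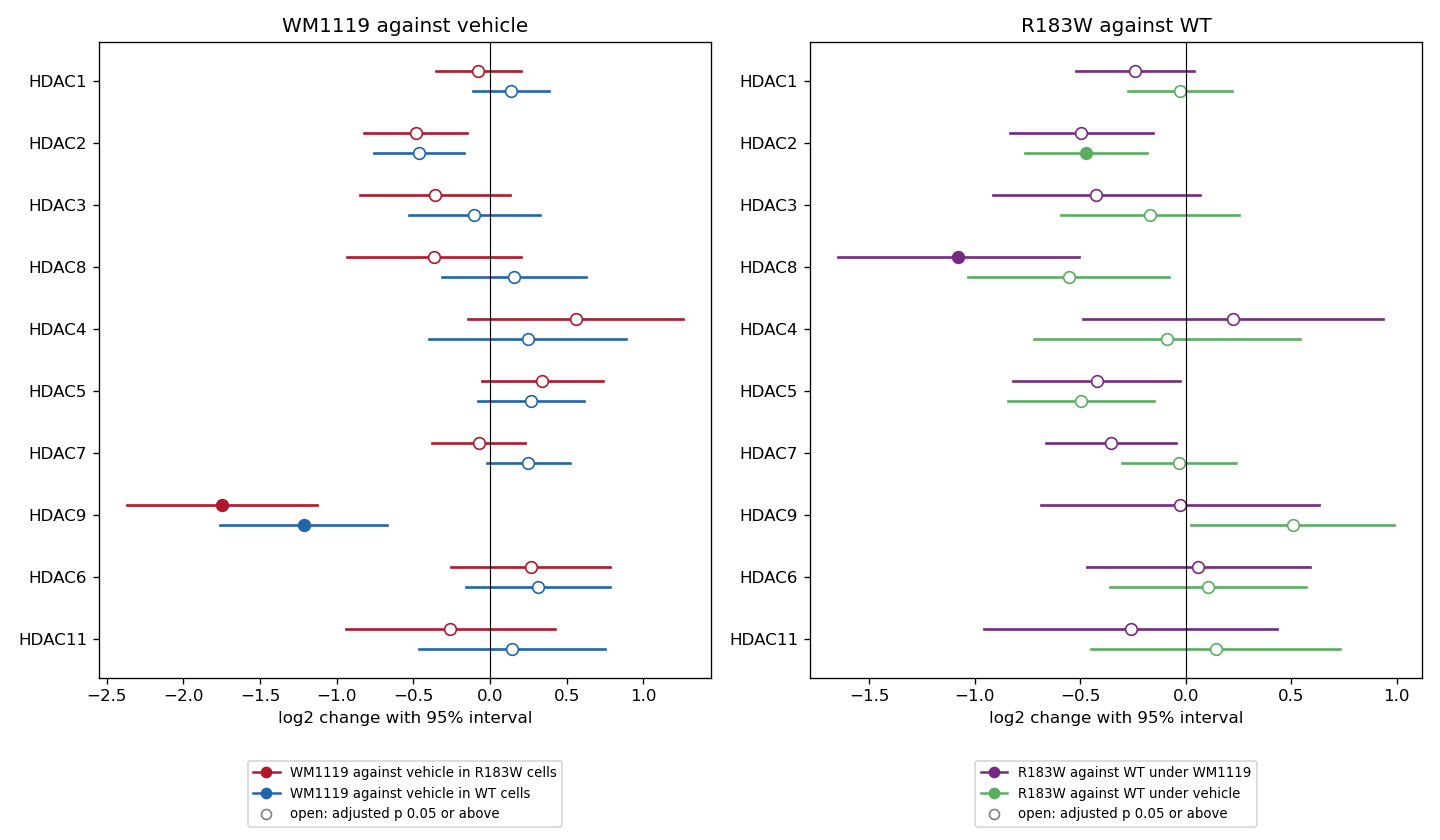
Log2 change of each histone deacetylase gene with its 95% interval, for WM1119 against vehicle in R183W and WT cells (left) and for R183W against WT under WM1119 and under vehicle (right). Filled points have an edgeR adjusted p under 0.05. HDAC9 is the filled gene on the left in both lines, at -1.75 and -1.22, and on the right HDAC8 is filled under WM1119 and HDAC2 under vehicle.

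The second question was how the R183W line differed from the WT line. HDAC8 was lower in R183W cells under WM1119, and HDAC2 was lower in them under vehicle. Each was the 1 of 10 members that passed in its comparison. Under WM1119 8.56% of all genes tested passed, 4.64% higher and 3.92% lower in R183W cells. Under vehicle 13.0% passed, 6.82% higher and 6.17% lower. The members' share is thus near the background in both. The median log2 difference of the members was -0.31 under WM1119, against -0.0237 for all genes, and -0.06 under vehicle, against -0.0081 for all genes.

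HDAC2 averaged 95.1 ± 11.5 CPM in R183W cells and 132 ± 7.52 CPM in WT cells under vehicle (SD, n = 3 each). The log2 difference was -0.47 (SE 0.136, edgeR adjusted p = 0.0351). The libraries did not overlap, since the highest R183W value was 104 CPM and the lowest WT value 127 CPM. Under WM1119 HDAC2 averaged 68.0 ± 5.53 CPM (n = 2) in R183W cells and 95.5 ± 10.5 CPM (n = 3) in WT cells. This log2 difference was -0.50 (SE 0.158, edgeR adjusted p = 0.0716). The call under vehicle was lost without any of the 6 vehicle libraries, either R183W WM1119 library or WT WM1119 library 2, with edgeR adjusted p from 0.0533 to 0.18. Under WM1119 the difference passed without WT WM1119 library 3 (edgeR adjusted p = 0.00963) and with DESeq2 (adjusted p = 0.0385). Averaged over both treatments, HDAC2 in R183W cells was at 71.5% of its WT level (log2 -0.48, SE 0.104, edgeR adjusted p = 0.00476). That averaged call held under all 18 alternative settings, with adjusted p from 0.000203 to 0.0393.

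HDAC2 has a single window in the promoter table, at chr6:113971149-113971398 on the minus strand, shown because HDAC2 moved with both the inhibitor and the line. It was 63.2% G and C, and none of the 6 motifs was found in it, so it has no capitals.
HDAC2: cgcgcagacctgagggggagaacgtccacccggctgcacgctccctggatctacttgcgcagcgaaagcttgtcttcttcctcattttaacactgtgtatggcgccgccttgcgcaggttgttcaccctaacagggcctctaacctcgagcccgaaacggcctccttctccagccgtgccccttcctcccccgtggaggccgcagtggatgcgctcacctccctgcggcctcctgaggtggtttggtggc
HDAC2-AS2, an antisense gene, had 0 to 12 counts per library, against 202 to 683 for HDAC2. The counting is not stated to use strand, so these counts do not show how many antisense reads were counted under HDAC2.

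HDAC8 had 8.64 and 12.7 CPM in R183W libraries and 18.7, 26.2 and 22.3 CPM in WT libraries under WM1119. Under vehicle it had 15.3, 13.3 and 12.2 CPM in R183W libraries and 16.7, 23.1 and 20.1 CPM in WT libraries. All 5 R183W libraries were below all 6 WT libraries. The log2 difference was -1.08 (SE 0.267, edgeR adjusted p = 0.023) under WM1119 and -0.55 (SE 0.220, edgeR adjusted p = 0.117) under vehicle. The call under WM1119 was lost without R183W WM1119 library 1 (edgeR adjusted p = 0.241) or 2 (0.0554), without WT WM1119 library 2 (0.0851), and when only the WM1119 libraries entered the fit (0.129). Averaged over both treatments, HDAC8 in R183W cells was at 56.8% of its WT level (log2 -0.82, SE 0.173, edgeR adjusted p = 0.00428). The averaged call held under all 18 alternative settings, with adjusted p from 0.000689 to 0.0392. HDAC8 lies on the X chromosome, and its window at chrX:72572844-72573093 on the minus strand is shown because its level followed the line. It held 2 TEAD matches, in capitals, 1 of them as the reverse complement.
HDAC8: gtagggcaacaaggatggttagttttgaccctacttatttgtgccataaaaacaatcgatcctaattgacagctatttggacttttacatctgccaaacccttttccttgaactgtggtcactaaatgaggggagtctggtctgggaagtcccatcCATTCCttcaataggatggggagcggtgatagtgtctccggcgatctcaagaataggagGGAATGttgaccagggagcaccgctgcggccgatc

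HDAC5 was also lower in the R183W line. It had 33.7, 33.0 and 28.8 CPM in R183W libraries and 46.6, 49.9 and 38.2 CPM in WT libraries under vehicle, without overlap. The log2 difference, -0.50, did not pass (SE 0.161, edgeR adjusted p = 0.0588). It passed when WT WM1119 library 1 (edgeR adjusted p = 0.0448) or 3 (0.0272) was left out, when only the vehicle libraries entered the fit (0.0378), and with DESeq2 (adjusted p = 0.0453). Under WM1119 the difference was -0.42 (edgeR adjusted p = 0.181), and averaged over both treatments it was -0.46 (SE 0.123, edgeR adjusted p = 0.0163). The averaged call was lost without R183W WM1119 library 1 (edgeR adjusted p = 0.0838).

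HDAC3 depended on 1 library. With all libraries its log2 difference under WM1119 was -0.42 (edgeR adjusted p = 0.285). Without WT WM1119 library 3, where HDAC3 stood at 47.5 CPM against 91.2 and 87.6 CPM in the others of its group, it was -0.67 (edgeR adjusted p = 0.00523). The averaged difference of HDAC3 was -0.30 with all libraries (edgeR adjusted p = 0.180) and -0.42 without that library (edgeR adjusted p = 0.00325). Without it, the members that passed were HDAC2, HDAC3 and HDAC8 under WM1119, and HDAC2 and HDAC5 under vehicle. The shares of all genes were then higher too, at 20.8% under WM1119 and 22.7% under vehicle.

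The remaining members did not pass between the lines. HDAC1 had log2 differences of -0.24 (edgeR adjusted p = 0.285) under WM1119 and -0.03 (0.908) under vehicle, and HDAC7 of -0.36 (0.149) and -0.03 (0.899). HDAC9, which fell to the same level in both lines with WM1119, had a difference of -0.03 under WM1119 (95% interval -0.69 to 0.63, edgeR adjusted p = 0.970). Under vehicle HDAC9 was higher in each R183W library than in each WT library, but the log2 difference of 0.51 did not pass (SE 0.224, edgeR adjusted p = 0.160). HDAC4, HDAC6 and HDAC11 had log2 differences between -0.26 and 0.22 with edgeR adjusted p of 0.676 to 0.912. In the contrast averaged over both treatments, 3 of the 10 members passed, HDAC2, HDAC5 and HDAC8, and these were lower in R183W cells. Of all genes 21.4% passed that contrast, and 10.6% of all genes were lower in it. The count was 4 without WT WM1119 library 3, with HDAC3 added, where 34.7% of all genes passed.

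**Figure D3:**
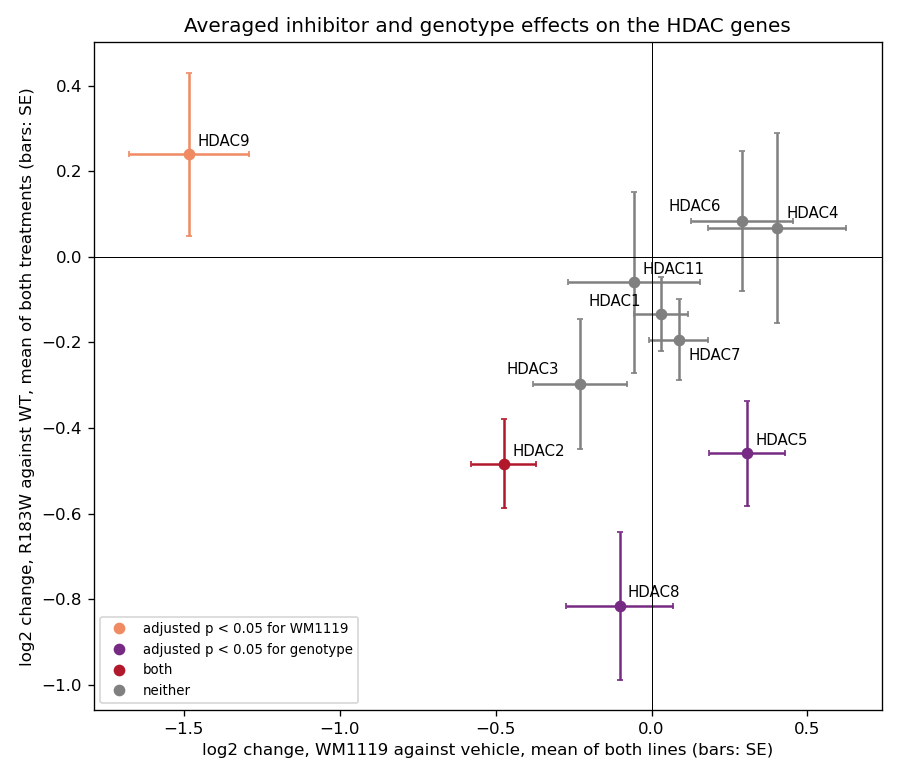
Averaged log2 change with WM1119 (horizontal) against averaged log2 difference between R183W and WT cells (vertical) for the 10 genes, with SE bars. Colour marks which contrast had an edgeR adjusted p under 0.05. HDAC9 stands at -1.48 on the horizontal axis, HDAC8 at -0.82 on the vertical axis, and HDAC2 is the gene marked on both, at -0.47 and -0.48.

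Whether the response to WM1119 differed between the lines was tested as an interaction, the log2 change in R183W cells minus the one in WT cells. None of the 10 members passed with edgeR, while 0.286% of all genes passed. At an unadjusted p under 0.05 there were 0 of the 10 members and 9.3% of all genes. Without WT WM1119 library 3, 1 of the 10 members and 1988 of 13897 genes had an unadjusted edgeR p under 0.05. After adjustment 0 of the members passed in that setting, and 1.38% of all genes did. DESeq2 and limma-voom also called 0 of the 10. HDAC9 had the interaction furthest from 0, at -0.53 with a 95% interval from -1.35 to 0.29 (edgeR adjusted p = 0.730). HDAC8 followed at -0.52, with an interval from -1.26 to 0.21 (edgeR adjusted p = 0.700). The interval of HDAC2 ran from -0.47 to 0.42 around -0.02 (edgeR adjusted p = 0.991). Each of these intervals includes 0, and each is wide. The lack of a call therefore does not show that the lines responded alike.

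Genes whose levels ran most like those of HDAC9, HDAC2 and HDAC8, the members called in a comparison of single groups, were found by the root-mean-square distance between centred log2 CPM profiles over the 11 libraries, among 12093 genes. The nearest to HDAC9 were KALRN, a guanine nucleotide exchange factor (distance 0.218), AKR1B1, aldose reductase (0.227), and MLPH, melanophilin (0.255), where the profile of HDAC9 itself had a root-mean-square of 0.774. AKR1B1 averaged 223 ± 3.34 CPM in R183W cells with WM1119 (SD, n = 2) and 583 ± 22.5 CPM with vehicle (n = 3). In WT cells AKR1B1 averaged 210 ± 20.8 CPM with WM1119 and 389 ± 13.1 CPM with vehicle (n = 3 each). KALRN, like HDAC9, was at 1 level in both lines with the inhibitor, 2.50 ± 0.541 CPM in R183W and 2.50 ± 1.31 CPM in WT cells, against 7.96 ± 1.87 and 6.37 ± 0.185 CPM with vehicle. The nearest to HDAC2 were BAZ1A, a subunit of chromatin remodelling complexes (0.112), SLC38A1, an amino acid transporter (0.120), and FMNL2, a formin (0.126), against 0.338 for HDAC2 itself. BAZ1A averaged 106 ± 7.93 CPM in R183W cells with WM1119 and 136 ± 22.6 CPM with vehicle, and 139 ± 26.0 and 187 ± 9.19 CPM in WT cells with WM1119 and with vehicle. The nearest to HDAC8 were CHD7, a chromatin remodeller (0.196), KIF13A, a kinesin (0.197), and LRP1, an endocytic receptor (0.209), against 0.444 for HDAC8 itself. CHD7 averaged 138 ± 9.15 and 181 ± 6.83 CPM in R183W cells with WM1119 and with vehicle, and 275 ± 13.1 and 283 ± 11.1 CPM in WT cells with WM1119 and with vehicle. These genes were picked for their likeness, so it is a description and was not tested.

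The proteins that histone deacetylases work with were taken from 6 lists of 83 genes, 80 of which could be tested. Averaged over both lines, 3 of the 80 rose and 6 fell with WM1119, 11.2% in all and near the 12.8% of all genes that passed. The count leaves out the list of subunits of the corepressor complex of HDAC3, so its balance of directions is not that of all partners. From that list, 2 subunits are given here, chosen because both rose. TBL1X, which exchanges corepressors for coactivators, rose by 0.72 (SE 0.142, edgeR adjusted p = 0.00572) and GPS2, a further subunit, by 0.60 (SE 0.138, edgeR adjusted p = 0.012). The GPS2 call was lost without R183W WM1119 library 2 (edgeR adjusted p = 0.0724). In single lines TBL1X passed in R183W cells (0.92, edgeR adjusted p = 0.0236) and not in WT cells. GPS2 passed in WT cells (0.76, edgeR adjusted p = 0.0348) and not in R183W cells. Of 19 alternative settings, 6 ended the TBL1X call in R183W cells and 10 the GPS2 call in WT cells.

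Of the 12 NuRD subunits tested, MTA1 rose and CHD5 fell with WM1119. MTA1, a scaffold that recruits HDAC1 and HDAC2, averaged 54.1 ± 0.434 CPM in R183W cells with WM1119 (n = 2) and 29.5 ± 3.48 CPM with vehicle (n = 3), and 87.0 ± 7.92 and 48.7 ± 5.48 CPM in WT cells with WM1119 and with vehicle. The averaged log2 change was 0.85 (SE 0.111, edgeR adjusted p = 0.000281). CHD5, an ATPase of some NuRD forms, averaged 18.3 ± 0.634 CPM in R183W cells with WM1119 and 40.0 ± 5.83 CPM with vehicle, and 11.2 ± 4.02 and 20.6 ± 2.23 CPM in WT cells with WM1119 and with vehicle, an averaged log2 change of -1.02 (SE 0.175, edgeR adjusted p = 0.0021). Between the lines the pair also ran in opposite directions, with MTA1 lower in R183W cells (averaged log2 difference -0.71, edgeR adjusted p = 0.000581) and CHD5 higher (0.86, edgeR adjusted p = 0.00311). The averaged calls of TBL1X, MTA1, CHD5 and ZMYM3 held under all 18 alternative settings. ZMYM3, of the CoREST list, rose by 0.70 (SE 0.108, edgeR adjusted p = 0.000972), the 1 of 15 members that passed, where 12.8% of all genes did. SINHCAF, of the SIN3 list, fell by 0.42 (SE 0.0935, edgeR adjusted p = 0.0109), 1 of 14, and lost its call without R183W WM1119 library 2 (edgeR adjusted p = 0.0552).

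Among 23 partners and kinases of class IIa enzymes, 3 fell with WM1119 and none rose, which is 13.0% and near the share of all genes, with a median log2 change of -0.05. They were 3 of the 6 genes in the list for 14-3-3 proteins, which hold phosphorylated class IIa enzymes in the cytoplasm. The other 3, YWHAB, YWHAG and YWHAH, did not pass, with log2 changes of 0.08, -0.05 and -0.05. The 14-3-3 genes were not a list of their own, and 6.52% of all genes tested were lower in this contrast. YWHAZ fell by 0.40 (SE 0.0889, edgeR adjusted p = 0.0105), YWHAE by 0.42 (SE 0.120, edgeR adjusted p = 0.0344) and YWHAQ by 0.29 (SE 0.0848, edgeR adjusted p = 0.0356). In single lines, 0 of the 6 14-3-3 genes passed in R183W cells and 1, lower, in WT cells. The YWHAZ call was lost when R183W WM1119 library 1 (edgeR adjusted p = 0.0539) or 2 (0.0609) was dropped. The call of YWHAE was lost without either R183W WM1119 library, WT WM1119 library 2, or library 2 or 3 of either vehicle group (edgeR adjusted p of 0.0567 to 0.174). That of YWHAQ was lost without either R183W WM1119 library, any R183W vehicle library, or WT vehicle library 2 or 3 (edgeR adjusted p of 0.0546 to 0.143). None of the MEF2 genes passed. MEF2B had the estimate furthest from 0, -3.46 (edgeR adjusted p = 0.220), at group means of 0 to 2.30 CPM, where such an estimate is not a bound on the change. Of 10 substrates and partners of HDAC6 and HDAC8, SQSTM1, an autophagy receptor, rose by 0.47 (SE 0.101, edgeR adjusted p = 0.0086) and TUBA1C, an alpha-tubulin, fell by 0.46 (SE 0.115, edgeR adjusted p = 0.0185). Those 2 calls among 10 genes do not set this list apart from the 12.8% of all genes that passed. The SQSTM1 call was lost without R183W WM1119 library 2 (edgeR adjusted p = 0.0506) and the TUBA1C call without that library (0.124) or WT vehicle library 2 (0.0529). Tubulin and 14-3-3 genes have close paralogs among which reads may have been divided, so their values are uncertain. None of the 6 sirtuins tested, the deacetylases that use NAD, passed in any of the comparisons with all libraries. Without WT WM1119 library 3, 15.8% of all genes passed the averaged contrast. The CoREST list then had 2 members higher and the HDAC6 and HDAC8 list 2 lower. The counts of the other 4 lists were as given.

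**Figure D4:**
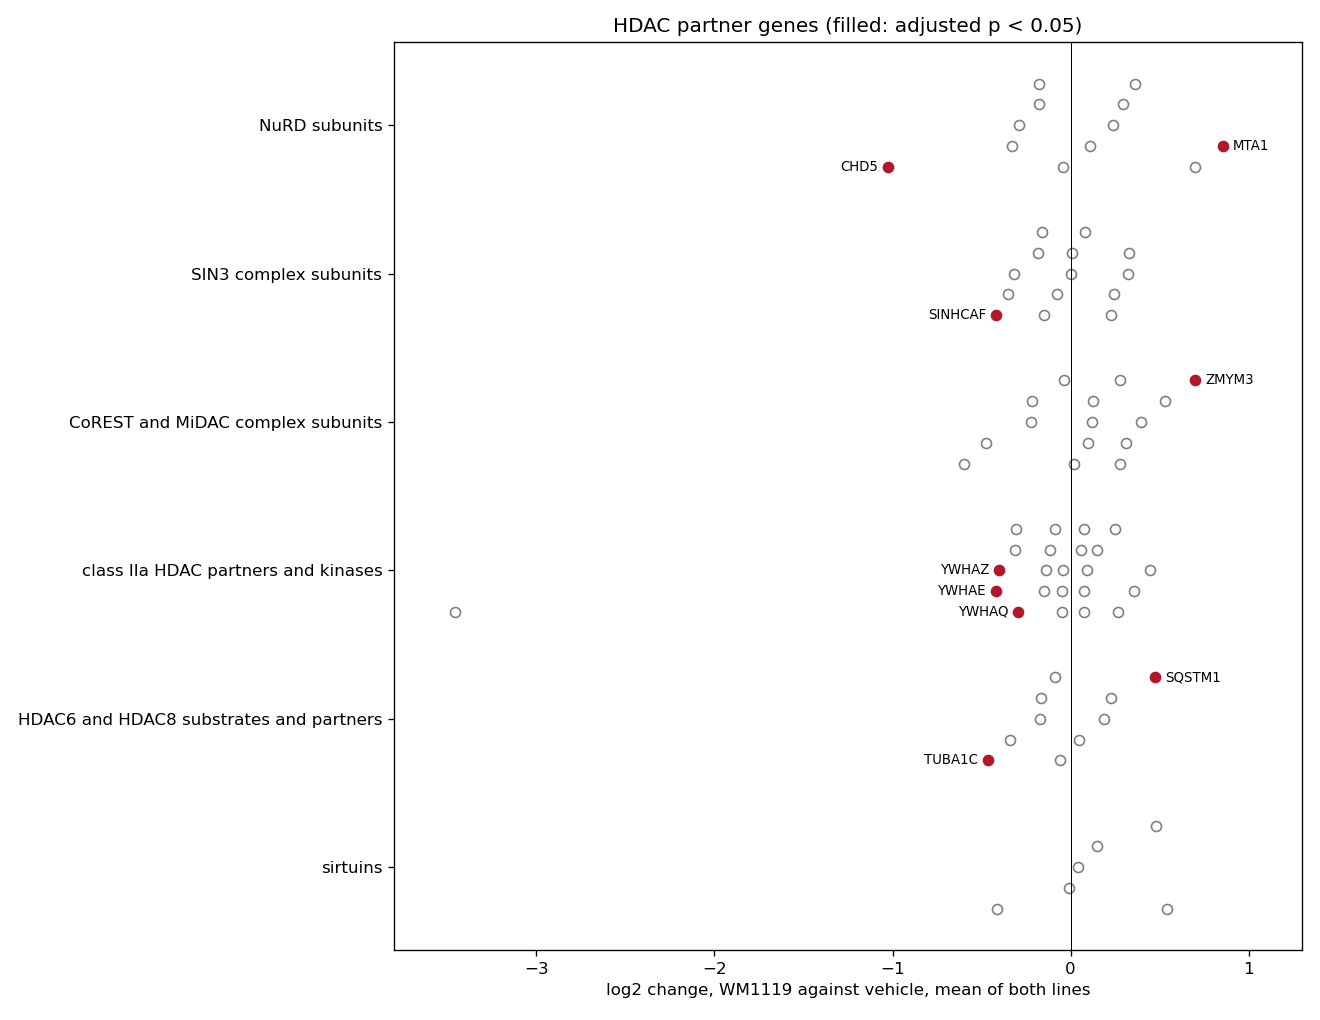
Averaged log2 change with WM1119 for the 80 tested genes of 6 lists of histone deacetylase partners. Filled, named points have an edgeR adjusted p under 0.05, and vertical offsets within a list only separate the points. MTA1 lies at 0.85 and CHD5 at -1.02 in the NuRD list, and the open point at -3.46 is MEF2B.

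Between the lines, averaged over both treatments, 6 of the 80 partner genes were higher and 9 lower in R183W cells, 18.8% in all, where 21.4% of all genes passed. RCOR2, a CoREST subunit, averaged 0.902 ± 0.421 CPM in R183W cells and 8.69 ± 8 CPM in WT cells under WM1119, and 2.09 ± 1.54 CPM in R183W cells and 9.58 ± 6.35 CPM in WT cells under vehicle. The averaged log2 difference of RCOR2 was -2.74 (SE 0.607, edgeR adjusted p = 0.00565), and it did not pass under either treatment alone (edgeR adjusted p = 0.0584 under WM1119 and 0.0538 under vehicle). Of genes that act on class IIa enzymes, PRKD2, a kinase that phosphorylates them, was higher in R183W cells (0.82, SE 0.168, edgeR adjusted p = 0.00341). The difference of PRKD2 was 1.28 under WM1119 (edgeR adjusted p = 0.00628) and 0.36 under vehicle (edgeR adjusted p = 0.312), and its interaction did not pass (0.91, edgeR adjusted p = 0.394). SIK2, another such kinase, was lower (-0.60, SE 0.136, edgeR adjusted p = 0.00641), as was YWHAZ (-0.66, SE 0.0895, edgeR adjusted p = 0.000159). Of the 6 14-3-3 genes in the list, YWHAZ was the 1 lower in R183W cells, and 1 other was higher. The averaged calls of RCOR2, PRKD2, SIK2 and YWHAZ held under all 18 alternative settings, while the PRKD2 call under WM1119 was lost in 1 of 19. Without WT WM1119 library 3, where 34.7% of all genes passed, more of these genes passed too, with 2 higher and 5 lower in the class IIa list, 3 higher and 5 lower in the SIN3 list, and 1 higher and 5 lower in the HDAC6 and HDAC8 list. The NuRD list then had 2 higher and 2 lower, the CoREST list 2 and 2, and the sirtuins 2 and 1.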

How the data were processed

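The values are expected counts per gene (estimated counts, here whole numbers) that the authors deposited in 1 table. STAR, RSEM and the hg19 build are named, without versions or roles, per the submitters' processing notes, and no source used here gives the annotation. Per the labels' protocols, RNA was prepared on RNeasy columns, DNase I was used, and the library kit was ScriptSeq Complete Gold, although the labels give the molecule as polyA RNA. Estimated counts share out reads that match several genes, so levels of genes with close paralogs are uncertain. HDAC1P1 and HDAC1P2, pseudogenes of HDAC1, had 0 counts.

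Symbols were matched by Ensembl ID for 51959 of the 57736 IDs, and unmatched IDs held 0.955% to 1.12% of counts. Transcript lengths came from GENCODE release 29, used for lengths and names only. Counts were tested in R 4.3.3 with the two-sided quasi-likelihood test of edgeR 4.0.16, after filterByExpr and with TMM factors, in 1 fit of 4 group means over all 11 libraries, with Benjamini-Hochberg adjustment over 13980 genes. Calls were made at an adjusted p below 0.05. The common biological coefficient of variation was 19.6%. Alternatives were other scaling factors, DESeq2 1.42.0, limma-voom (limma 3.58.1), other filters, only the groups compared, a replicate block and leaving out each library. The procedure was also run on simulated counts, and no result above rests on that run. Counts for 1 further list of partner genes are not reported here.

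The member genes and the lists were chosen with earlier results of these data known. Named genes were all 10 members, PPP2R1A and KAT6A, for each list at most 3 called genes, those with the largest changes at 2 CPM or more in the higher group, and the 3 genes nearest in profile to each member called in 1 of the 4 comparisons of single groups. The averaged contrasts, the neighbouring genes TWIST1, HS3ST5, CITED1 and PHKA1, HDAC10, MEF2B and the alternatives on list genes were added after the data had been seen. PPP2R1A averaged 30.0 ± 4.41 CPM (SD, n = 2) in R183W cells and 27.8 ± 3.36 CPM (n = 3) in WT cells under WM1119, and 34.3 ± 2.86 CPM in R183W cells and 23.2 ± 2.69 CPM in WT cells under vehicle (n = 3 each). It passed under vehicle (edgeR adjusted p = 0.0463) and not under WM1119 (edgeR adjusted p = 0.790). The call under vehicle was lost in 12 of 19 alternative settings, and the difference averaged over both treatments did not pass (edgeR adjusted p = 0.0836).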

Additional observations from a re-analysis of the deposited data

How the results depend on the processing

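Of 940 results for single members in the 4 pairwise comparisons and the interaction, under 19 alternative settings, 911 kept their call or lack of one, 19 lost a call and 10 gained one. Most of these results had no call to lose, so the share kept says little of the calls. With WM1119, HDAC9 lost its call in 2 of 19 settings in R183W cells and 3 of 19 in WT cells. Between the lines, HDAC2 lost its call under vehicle in 10 of 19 settings, and HDAC8 under WM1119 in 4 of 19. Of 360 results in the averaged contrasts, 357 kept their call or lack of one, 2 lost a call and 1 gained one. Of called results 0 changed sign, while uncalled estimates near 0 could, as for HDAC9 between the lines under WM1119 (-0.20 to 0.21). Members called with WM1119 in R183W cells were 2 when only the groups compared were fitted, and 0 to 2 without 1 library. In WT cells they were 2 with DESeq2, 0 when only the groups compared were fitted, and 0 to 1 without 1 library. Between the lines they were 2 with DESeq2 under either treatment. With only the groups compared they were 0 under WM1119 and 2 under vehicle. Without 1 library they were 0 to 3 under WM1119 and 0 to 2 under vehicle. In the averaged contrasts they were 1 to 2 for WM1119 and 2 to 4 for the line without 1 library, and 0 throughout for the interaction. Over all genes, calls without a low-count filter numbered 1110 for WM1119 in R183W cells, 1287 in WT cells and 191 for the interaction. With DESeq2 they were 1048 for WM1119 in WT cells and 160 for the interaction. With only the groups compared they were 2406 for WM1119 in R183W cells, 139 in WT cells, and between the lines 319 under WM1119 and 2929 under vehicle. Without 1 library they ran from 118 to 1600 and 247 to 1392 for WM1119 in R183W and WT cells, 386 to 2895 and 965 to 3151 between the lines under WM1119 and under vehicle, and 0 to 192 for the interaction. The averaged contrasts ran from 728 to 2594 for WM1119 and 1799 to 4819 for the line. The causes of these shifts were not tested. The alternative scalings moved the median of all genes by under 0.1 on the log2 scale.

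Same-numbered libraries were not taken as pairs. Of 15 same-numbered pairs across groups, 2 correlated above 0.1 in their deviations from the group means (range -0.391 to 0.137). With groups of 2 or 3 libraries, such correlations cannot show whether the libraries were paired. With the replicate number as a block, 261 genes were called for WM1119 in R183W cells, 287 in WT cells, 678 between the lines under WM1119, 1189 under vehicle, 0 for the interaction and 1092 for the averaged WM1119 contrast. Members called with the block were 0 between the lines under vehicle, where HDAC2 had an edgeR adjusted p of 0.0787, and no other member call changed. The block also ended the averaged WM1119 calls of YWHAE (edgeR adjusted p = 0.0771) and YWHAQ (0.0854). Depth limits HDAC9, with 10 to 30 counts per WM1119 library, and HDAC8, with 36 and 42 counts in the R183W libraries with WM1119. A count of 0, taken as up to 3 counts, allows 0.495 to 1.24 CPM.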

Other observations

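HDAC10, the other class IIb enzyme, was not among the 10 genes described above and was looked at after their values were seen. It had 13.9 and 23.9 CPM in R183W libraries with WM1119, against 10.2, 9.84 and 9.73 CPM with vehicle. In WT libraries it had 11.6, 17.0 and 24.4 CPM with WM1119, against 12.7, 6.1 and 7.15 CPM with vehicle. R183W libraries with WM1119 were above those with vehicle, while the WT groups overlapped by 1 library. The log2 change was 0.91 (SE 0.361, edgeR adjusted p = 0.175) in R183W cells and 1.01 (SE 0.336, edgeR adjusted p = 0.102) in WT cells. Averaged over both lines HDAC10 rose by 0.96 on the log2 scale (SE 0.246, edgeR adjusted p = 0.021). That call was lost without R183W vehicle library 2 (edgeR adjusted p = 0.0515) or 3 (0.052), without WT vehicle library 2 (0.0569) or 3 (0.0515), without R183W WM1119 library 2 (0.138), and with the replicate number as a block (0.0559). HDAC10 thus differed in direction from HDAC9, while its partner in class IIb, HDAC6, had an averaged estimate of 0.29 that did not pass.

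Antisense genes of the family held few counts. HDAC4-AS1 had 144 counts over the 11 libraries, 3 to 25 per library, where HDAC4 had 48 to 116. HDAC9-AS1 and HDAC11-AS1 had 0 counts. The counting is not stated to use strand, so this does not show whether antisense reads were counted under the sense genes.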
